A study of Homo sapiens with 2 samples.

Results

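The 59 genes described here encode proteins that hepatocytes make and secrete into blood plasma: 14 carriers and binding proteins, 10 apolipoproteins, 15 coagulation and fibrinolysis proteins, 7 complement proteins and 13 protease inhibitors. The hormone carrier SERPINA6 and its relative SERPINA7 were counted as carriers. A peak was assigned to a gene when the deposited annotation named that gene, which is the gene with the nearest transcription start site (TSS). By this rule 45 of the 59 genes were named for at least 1 peak, and these genes held 148 of the 56159 listed peaks. Open chromatin had been mapped by FAIRE-seq, in which DNA free of crosslinked protein is recovered and sequenced, in HepG2, a long-established line of human liver cancer cells. Lentiviral particles brought in either a scrambled shRNA (control) or an shRNA against the nuclear receptor NR2E3 (NR2E3-depleted). Both groups were thus infected cells of the same line, and each was represented by 1 library, so differences between them had no replicate check and no test was possible. FAIRE-seq reads DNA, and the depletion of NR2E3 itself could not be checked in these lists.

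Plasma proteins are made mostly by the liver, and their genes are among the most active genes of a differentiated hepatocyte. Their promoters and nearby enhancers are known targets of the liver transcription factors HNF1, HNF4, C/EBP and FOXA, and many of the genes lie in clusters of relatives that arose by duplication. HepG2 cells are widely used as a liver model because they still secrete many plasma proteins.

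The 3 lists held 14368 peaks common to both libraries, 16236 specific to the control library and 25555 specific to the NR2E3-depleted library. Each peak spanned 300 bp and carried a score that was a scaled tag number. A tag was worth 0.407 in the common and control-specific lists and 0.507 in the depleted-specific list, so tag numbers of common peaks are those of the control library. The number of tags at the same place in the other library was not analysed here. Of 7 hepatocyte and HepG2 markers, all 7 were named for a peak and 4 (HNF4A, FOXA1, FOXA2 and KRT8) had a promoter peak. Of 10 markers of blood, endothelial, mesenchymal, muscle and glial cells, 6 were named for a peak and 0 had a promoter peak (up to 30.8% by the exact interval). Over all protein-coding genes these shares were 52.8% and 28.8%. FOXA1 alone was named for 24 common, 33 control-specific and 27 depleted-specific peaks, and the markers were not compared by chromosome. Chromosomes 2, 6, 14, 16, 17 and 20 were very rich in peaks and held 70.4% of all peaks but 42.6% (63) of the peaks of the plasma protein genes.

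The sequences that the promoter results turn on are shown here, on the strand of the gene, 5′ to 3′ and from hg38. They are the promoter peaks with the most tags in each list, and the common FGA peak because it held an HNF1 motif match. The control-specific F10 peak held an HNF4 match, but outside the stretch described next, and is not shown. The stretch printed is the part of the peak upstream of the annotated start that holds no annotated UTR base, and capitals mark motif matches within it. APOM (chr6:31655625-31655893, + strand) and CFB (chr6:31945674-31945943, + strand) and FGA (chr4:154590743-154591008, − strand) were common. AHSG (chr3:186612606-186612905, + strand) and SERPINC1 (chr1:173917379-173917563, − strand) were control-specific. C8A (chr1:56854601-56854767, + strand) and KNG1 (chr3:186717199-186717347, + strand) were depleted-specific.
APOM: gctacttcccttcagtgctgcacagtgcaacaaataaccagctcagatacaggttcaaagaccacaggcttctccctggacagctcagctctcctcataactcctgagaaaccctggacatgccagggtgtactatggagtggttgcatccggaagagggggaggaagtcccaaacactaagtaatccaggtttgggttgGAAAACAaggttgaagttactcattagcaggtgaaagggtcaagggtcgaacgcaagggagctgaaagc
CFB: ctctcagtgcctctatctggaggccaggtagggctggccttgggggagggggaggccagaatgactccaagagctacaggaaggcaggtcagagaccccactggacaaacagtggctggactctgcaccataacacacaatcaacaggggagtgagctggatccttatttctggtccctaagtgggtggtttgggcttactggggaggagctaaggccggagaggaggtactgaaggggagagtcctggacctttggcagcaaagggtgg
FGA: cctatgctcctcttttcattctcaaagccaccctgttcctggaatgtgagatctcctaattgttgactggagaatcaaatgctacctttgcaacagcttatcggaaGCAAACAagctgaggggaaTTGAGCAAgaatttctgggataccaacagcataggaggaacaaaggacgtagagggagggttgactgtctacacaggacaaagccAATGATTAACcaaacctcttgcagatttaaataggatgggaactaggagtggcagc
AHSG: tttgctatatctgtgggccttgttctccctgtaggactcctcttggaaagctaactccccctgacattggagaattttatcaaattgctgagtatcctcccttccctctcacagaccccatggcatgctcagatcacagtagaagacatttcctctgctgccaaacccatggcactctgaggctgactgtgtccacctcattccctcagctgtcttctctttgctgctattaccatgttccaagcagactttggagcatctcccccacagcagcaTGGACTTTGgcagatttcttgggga
SERPINC1: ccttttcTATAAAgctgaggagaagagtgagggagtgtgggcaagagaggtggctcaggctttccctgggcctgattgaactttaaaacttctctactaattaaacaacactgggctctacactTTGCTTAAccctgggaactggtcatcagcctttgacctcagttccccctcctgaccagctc
C8A: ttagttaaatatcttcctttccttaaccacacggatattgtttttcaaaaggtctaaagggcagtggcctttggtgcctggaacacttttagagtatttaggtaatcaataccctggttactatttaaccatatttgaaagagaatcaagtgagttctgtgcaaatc
KNG1: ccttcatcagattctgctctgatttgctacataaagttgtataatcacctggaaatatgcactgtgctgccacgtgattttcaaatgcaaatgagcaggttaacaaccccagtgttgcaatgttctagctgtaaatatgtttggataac

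In these stretches APOM held a FOXA word (GAAAACA), and FGA held a FOXA word (GCAAACA), a C/EBP word (TTGAGCAA) and an HNF1 word. AHSG held the HNF4 word TGGACTTTG, and SERPINC1 held a C/EBP word (TTGCTTAA) and a TATA box. The C8A and KNG1 stretches held no match to the 7 motifs searched. Searched regardless of its peak, the KNG1 promoter held FOXA and C/EBP words. The CFB stretch held no match either, although the whole CFB peak held a FOXA word.

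The plasma protein genes were more often named for a peak than protein-coding genes at large, and this held for promoter peaks too. Any peak was found for 45 of 59 genes (76.3%, exact Clopper-Pearson 95% interval 63.4 to 86.4), against 52.8% of all 20037 protein-coding genes. A promoter peak, which the annotation places within 1000 bp upstream to 100 bp downstream of a TSS, was found for 28 genes (47.5%, 34.3 to 60.9), against 28.8%. Intervals cover counting error only. Among 69 other plasma protein genes, listed for comparison, 40 (58%, 45.5 to 69.8) had any peak and 18 (26.1%, 16.3 to 38.1) had a promoter peak.

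By list, 16 of the 59 genes (27.1%, 16.4 to 40.3) had a common promoter peak, against 15.0% of all protein-coding genes. For control-specific promoter peaks the number was 7 genes (11.9%, 4.91 to 22.9), against 3.73%. For depleted-specific promoter peaks it was 6 genes (10.2%, 3.82 to 20.8), against 11.9%, so that this share lay near the background. Both counts depended on the limits set. With peaks within 3000 bp of a TSS they were 11 (18.6%, 9.69 to 30.9, against 7.93%) and 16 (27.1%, 16.4 to 40.3, against 18.1%), and at a stricter score of 6.08 they were 4 (6.78%, 1.88 to 16.5, against 1.95%) and again 4 (against 10.3%). Counting peaks of any position, 29 genes (49.2%) had a common peak against 27.4%, 19 (32.2%) had a control-specific peak against 21.4%, and 27 (45.8%, 32.7 to 59.2) had a depleted-specific peak against 37.0%.

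**Figure D1:**
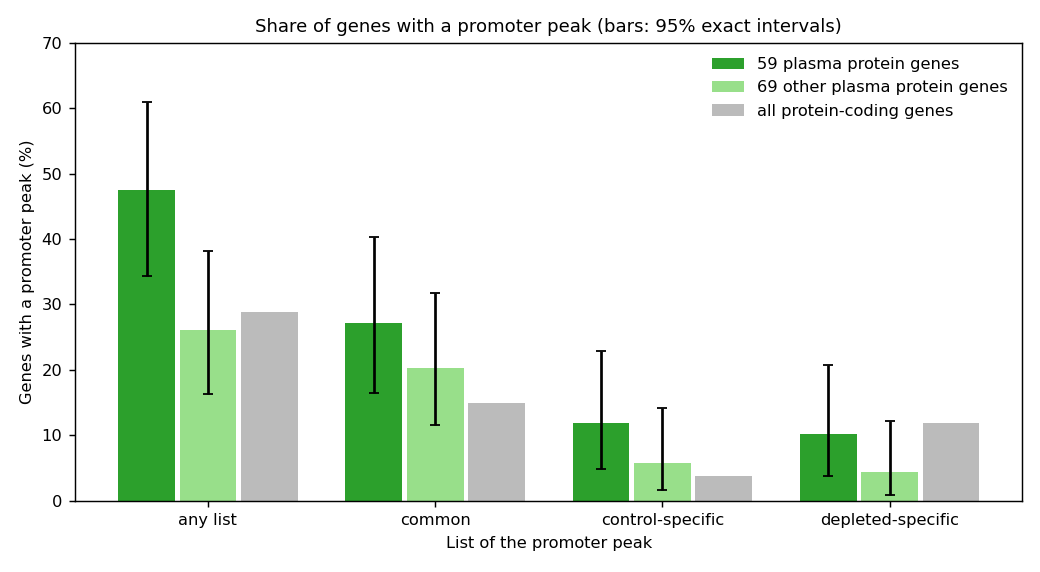
Percentage of genes (y axis) with a promoter peak in any list and in each list (x axis) for the 59 plasma protein genes, 69 other plasma protein genes and all 20037 protein-coding genes, where error bars are exact 95% intervals for counting error. The 59 genes stood at 11.9% for control-specific promoter peaks beside 3.73% of all protein-coding genes, and at 10.2% for depleted-specific ones beside 11.9%.

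The 148 peaks comprised 50 common, 36 control-specific and 62 depleted-specific peaks. Depleted-specific peaks outnumbered control-specific ones by 1.72 to 1 (exact binomial interval 1.12 to 2.67), and the ratio over all peaks was 1.57 (1.54 to 1.61). The counts were then split by position. Outside promoters there were 56 depleted-specific and 29 control-specific peaks, a ratio of 1.93 (1.21 to 3.14) beside 1.48 over all peaks. In the annotated promoter class there were 6 and 7, a ratio of 0.857 (0.238 to 2.98), beside 3.15 (2.92 to 3.4) over all promoter peaks. This contrast depended on the promoter limit and on the score: the ratio was 1.12 (0.385 to 3.35) beside 2.85 within 1000 bp of the TSS, 1.5 (0.684 to 3.41) beside 2.18 within 3000 bp, and 1 (0.186 to 5.37) beside 5.21 at the stricter score. Promoter peaks made up 19.4% (8.19 to 36) of their control-specific peaks, against 5.54% over all control-specific peaks, but 9.68% (3.63 to 19.9) of their depleted-specific peaks, against 11.1%. Of the peaks present in the control library, 58.1% (47 to 68.7) were common, against 46.9% over all peaks, but outside the 6 peak-rich chromosomes the share was 60.9% (45.4 to 74.9), against 62.2%.

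Gene by gene, 24 plasma protein genes had more depleted-specific than control-specific peaks, 12 had more control-specific ones, 1 had equal numbers and 8 had common peaks alone. This split was not counted over all protein-coding genes. Of those, 37.0% were named in the depleted-specific list and 21.4% in the control-specific list. The median was 2 peaks per gene with a peak, as over all protein-coding genes with a peak. The 8 genes with 5 or more peaks held 71 of the 148: APOB (23), APOH (10), TF (8), ALB (7), AHSG (7), PROC (6), SERPINA1 (5) and ITIH2 (5).

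**Figure D2:**
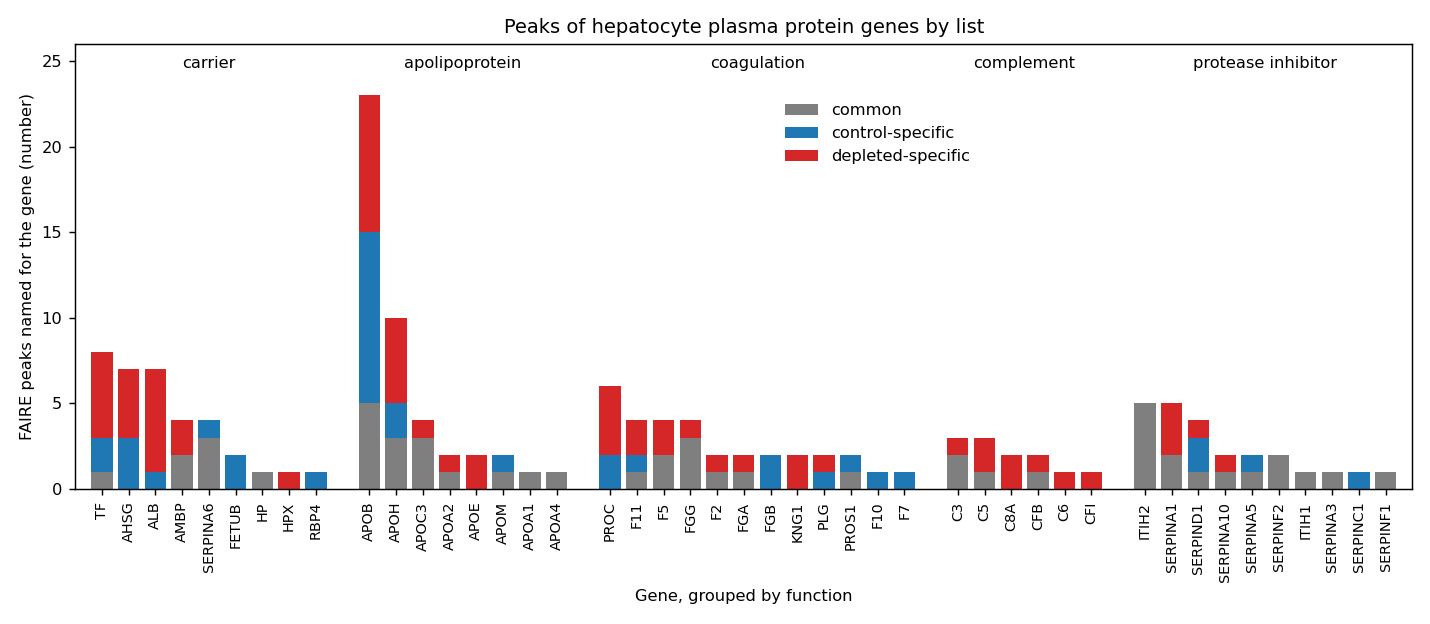
Number of FAIRE peaks (y axis) named for each of the 45 plasma protein genes with a peak (x axis, grouped by function), with bars stacked by list. APOB had 23 peaks, ALB had 6 depleted-specific peaks of 7, and the 6 complement genes with a peak had no control-specific one.

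Among the carriers, 9 of 14 genes were named for a peak, and the 35 peaks comprised 7 common, 10 control-specific and 18 depleted-specific ones (depleted-specific to control-specific ratio 1.8, 0.788 to 4.36). The 5 carrier genes with a promoter peak had it in the common or the control-specific list. HP, which binds free haemoglobin, had a common promoter peak 45 bp upstream of its TSS with 14 tags (exact Poisson interval 7.65 to 23.5). AMBP, the precursor of alpha-1-microglobulin and bikunin, had a common promoter peak with 17 tags (9.9 to 27.2).

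The promoters of 3 carrier genes were listed in the control library alone. AHSG, the mineral-binding fetuin-A, had a promoter peak 304 bp upstream with 24 tags (15.4 to 35.7). RBP4, which carries retinol, had a promoter peak 293 bp upstream with 13 tags (6.92 to 22.2). TF, the iron carrier transferrin, had a promoter peak 195 bp upstream, also with 13 tags. The intervals of these tag numbers overlapped, so the promoters could not be ranked by signal.

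Outside promoters the carrier genes had 18 depleted-specific and 7 control-specific peaks. Over all peaks outside promoters, depleted-specific ones were also more numerous (ratio 1.48). FETUB, with 2 control-specific peaks and no depleted-specific one, and SERPINA6 went the other way. AHSG had 4 depleted-specific peaks between 6.76 kb and 19 kb upstream, beside control-specific peaks 13.7 kb upstream and 1.95 kb downstream, the latter in intron 1 of 6. TF had 5 depleted-specific peaks, with 12 to 22 tags, 1 common peak and 1 further control-specific peak. All were annotated to introns 1, 3 or 7 of a transcript, and distances were given to more than 1 TSS. All of them lay upstream of the GENCODE gene span of TF, which starts at position 133746040 of chromosome 3. HPX, which binds haem, had 1 depleted-specific peak, in intron 4 of 9. SERPINA6, the cortisol carrier, had a control-specific peak in intron 1 of 4, 105 bp downstream of its TSS and thus just past the limit of the promoter class, with 16 tags.

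ALB, which encodes serum albumin, the most abundant plasma protein, had no promoter peak in any list. Its depleted-specific peaks lay 62.7, 55.9, 25.2, 12.3 and 6.3 kb upstream of the TSS and 11.6 kb downstream, in intron 9 of 14, and held 11 to 17 tags. Its only control-specific peak, with 13 tags, lay 58.8 kb upstream between the farthest of these, and 0 of its 7 peaks were common (up to 41%, against 25.6% of all peaks). AFP, its neighbour in the albumin family and a HepG2 marker, was likewise named for 3 depleted-specific peaks and had no promoter peak. The 200 bases before the ALB TSS (chr4:73404087-73404286, + strand; RefSeq promoter table on GRCh38.p14, equal to hg38 there) are shown because this promoter held no peak although a FOXA and a C/EBP word stood in it.
ALB: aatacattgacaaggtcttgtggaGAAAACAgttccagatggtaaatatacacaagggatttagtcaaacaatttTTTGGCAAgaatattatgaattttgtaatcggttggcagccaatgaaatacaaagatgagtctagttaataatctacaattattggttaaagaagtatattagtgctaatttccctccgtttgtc

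Of 10 apolipoprotein genes, 6 had a peak of the annotated promoter class, and 0 of their 7 promoter peaks were specific to a library (up to 41%), against 52% of all promoter peaks. A depleted-specific APOE peak lay just past the limit of that class. APOM, which carries sphingosine-1-phosphate on lipoproteins, had a promoter peak with 36 tags (25.2 to 49.8) 119 bp upstream, the highest tag number among the 30 promoter peaks, with an interval that overlapped that of CFB. APOH, or beta2-glycoprotein I, had a promoter peak with 23 tags (14.6 to 34.5) 38 bp upstream. The promoter peaks of APOA2 (19 tags), APOA1 (17), APOC3 (15 tags in each of 2 peaks, 68 and 768 bp upstream) and APOB (14) had overlapping intervals. APOA1 and APOA2 encode the main proteins of high-density lipoprotein, APOC3 an inhibitor of lipoprotein lipase, and APOB the scaffold of very-low-density and low-density lipoprotein.

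Outside promoters 8 peaks of apolipoprotein genes were common, 13 were control-specific and 17 were depleted-specific, of which APOB held 4, 10 and 8. APOB lies on chromosome 2, among the chromosomes richest in peaks. Its control-specific peaks lay mostly in the gene body and beyond its end, with 8 of the 10 between 6 kb and 59.6 kb downstream of the TSS, including exons 5 and 26 of 29. Its depleted-specific peaks were split evenly, with 4 between 3.49 kb and 32 kb upstream and 4 between 1.93 kb and 31.9 kb downstream. The remaining genes of the group together had 3 control-specific and 9 depleted-specific peaks. APOE, whose protein mediates uptake of lipoprotein remnants, had 2 depleted-specific peaks and no other: 18 tags in intron 1 of 3, 136 bp downstream of the TSS, and 12 tags 2.01 kb upstream.

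The strongest APOB peaks outside its promoter are shown next, 200 bases around each centre on the − strand of hg38. The common peak (chr2:21056407-21056606) lay 12.4 kb upstream with 30 tags (20.2 to 42.8). The strongest control-specific peak (chr2:21070674-21070873) lay 26.7 kb upstream with 24 tags (15.4 to 35.7). The strongest depleted-specific peak (chr2:21070369-21070568) lay 26.4 kb upstream with 23 tags (14.6 to 34.5). The last 2 peaks were separated by 4 bases, so that each library had a listed peak of its own at this place.
APOB common: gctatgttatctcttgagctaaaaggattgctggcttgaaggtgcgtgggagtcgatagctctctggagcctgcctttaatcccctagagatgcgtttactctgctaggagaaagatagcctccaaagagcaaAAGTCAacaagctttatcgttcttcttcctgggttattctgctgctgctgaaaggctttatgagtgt
APOB control-specific: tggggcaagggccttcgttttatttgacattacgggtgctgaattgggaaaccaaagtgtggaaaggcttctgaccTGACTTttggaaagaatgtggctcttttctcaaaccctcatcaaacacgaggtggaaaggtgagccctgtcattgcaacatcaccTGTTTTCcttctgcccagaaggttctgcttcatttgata
APOB depleted-specific: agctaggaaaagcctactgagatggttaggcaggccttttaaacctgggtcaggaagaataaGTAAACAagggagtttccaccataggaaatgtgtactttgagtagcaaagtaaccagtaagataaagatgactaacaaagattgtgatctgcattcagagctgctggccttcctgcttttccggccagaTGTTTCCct

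**Figure D3:**
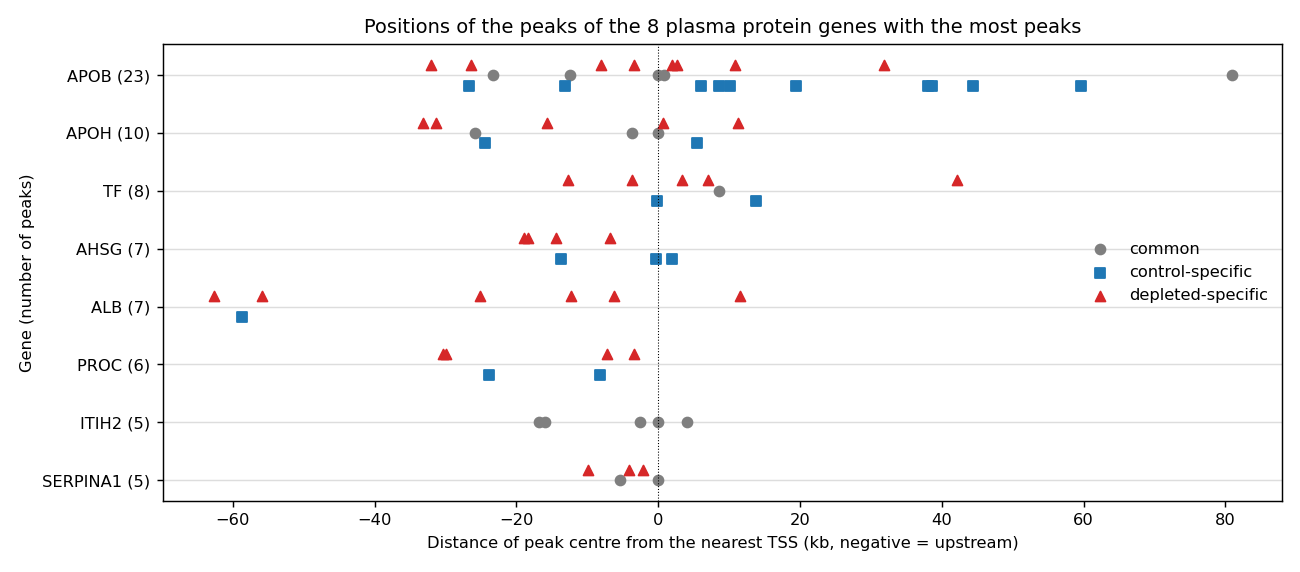
Distance of each peak centre from the nearest TSS (x axis, kb, negative is upstream) for the 8 plasma protein genes with the most peaks (y axis), marked by list. The 6 depleted-specific ALB peaks spread from 62.7 kb upstream to 11.6 kb downstream, the 5 ITIH2 peaks were all common, and most control-specific APOB peaks lay downstream of the TSS.

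Among the coagulation and fibrinolysis genes, 12 of 15 were named for a peak and 7 had a promoter peak, which fell into all 3 lists. The 32 peaks comprised 9 common, 9 control-specific and 14 depleted-specific ones (ratio 1.56, 0.627 to 4.07). The serine protease zymogens F7, F10 and F11, which stand at the start and the centre of the clotting cascade, had control-specific promoter peaks. The F7 peak lay 308 bp upstream with 17 tags (9.9 to 27.2), the F10 peak 65 bp upstream with 13 tags (6.92 to 22.2), and the F11 peak 197 bp upstream with 15 tags (8.4 to 24.7). F7 and F10 are neighbours within 43.7 kb on chromosome 13, and these 2 promoter peaks were the only peaks named for either gene. Counting peaks named for neighbours too, 2 control-specific and 1 depleted-specific peak lay within 10 kb of the F10 gene.

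Depleted-specific promoter peaks were found at F5, KNG1 and F2. F5, the cofactor of factor Xa, had a peak 214 bp upstream with 11 tags (5.49 to 19.7). KNG1, the source of bradykinin, had a peak 10 bp upstream with 17 tags (9.9 to 27.2). F2, or prothrombin, had a depleted-specific peak 10 bp downstream with 12 tags (6.2 to 21) and a common peak 673 bp upstream with 20 tags (12.2 to 30.9). The F2 peak was the only specific promoter peak of the 59 genes with a peak of another list within 1000 bp, at 683 bp. The remaining 12 specific promoter peaks lay farther from any peak of another list, from 1038 bp at F11 to 70873 bp at RBP4.

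Of the fibrinogen chains, which lie together within 50 kb on chromosome 4, FGA had a common promoter peak with 15 tags (8.4 to 24.7), and FGB and FGG had none. FGB was named for 2 control-specific peaks, 3.33 kb and 2.76 kb upstream with 21 and 13 tags. FGA was named for a depleted-specific peak with 22 tags (13.8 to 33.3), 13.2 kb past its TSS. PROC, the anticoagulant protein C, had 6 peaks, all upstream, of which 4 were depleted-specific (14 to 17 tags) and 2 control-specific (15 and 19 tags). PROS1, the cofactor of protein C, was named for a common peak of 29178 tags that lay 504 kb from its TSS, while all the other 147 peaks held 10 to 36 tags.

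Among the complement genes, 6 of 7 were named for a peak, and 0 of their 12 peaks were control-specific (up to 26.5%, against 28.9% of all peaks), beside 4 common and 8 depleted-specific ones. All 6 genes with a peak had a depleted-specific peak, as did 70% of all protein-coding genes with a peak. At promoters, CFB, a protease of the alternative pathway, had a common peak with 34 tags (23.5 to 47.5), and C3, the central complement component, had a common peak with 17 tags (9.9 to 27.2). C8A and C5, which take part in the membrane attack complex and its assembly, had depleted-specific promoter peaks. The C8A peak lay 19 bp upstream with 20 tags (12.2 to 30.9), and the C5 peak lay 22 bp downstream with 11 tags (5.49 to 19.7). C6, another subunit of that complex, and CFI, which cleaves C3b, each had 1 depleted-specific intron peak, with 13 and 11 tags. With 12 peaks in the group, the absence of control-specific ones was not tested.

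The protease inhibitors had the largest share of common peaks among the 5 groups, with 15 of 24, against 25.6% of all peaks. ITIH2 alone held 5 of these 15, and whether the groups differ was not tested. The remaining peaks were 4 control-specific and 5 depleted-specific ones (ratio 1.25, 0.269 to 6.3). SERPINA1, the inhibitor of neutrophil elastase, and SERPINA10, which inhibits factor Xa together with protein Z, each had a common promoter peak with 22 tags (13.8 to 33.3). SERPINF2, the inhibitor of plasmin, had a common promoter peak with 16 tags, and ITIH2, a heavy chain that binds hyaluronan, had one with 13 tags. All 5 ITIH2 peaks were common (0 of 5 specific, up to 52.2%), and they lay between 16.8 kb upstream and 4.06 kb downstream. SERPINC1, or antithrombin, had a control-specific promoter peak 36 bp upstream with 20 tags (12.2 to 30.9), and it was its only peak. SERPIND1, or heparin cofactor II, had a depleted-specific promoter peak 122 bp upstream with 14 tags (7.65 to 23.5), 2 control-specific peaks and a common intron peak with 30 tags (20.2 to 42.8). ITIH1, SERPINF1 and SERPINA3 each had 1 common peak and no other, with 15, 19 and 25 tags, and SERPINA5 had 1 common and 1 control-specific peak, with 13 and 16 tags.

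**Figure D4:**
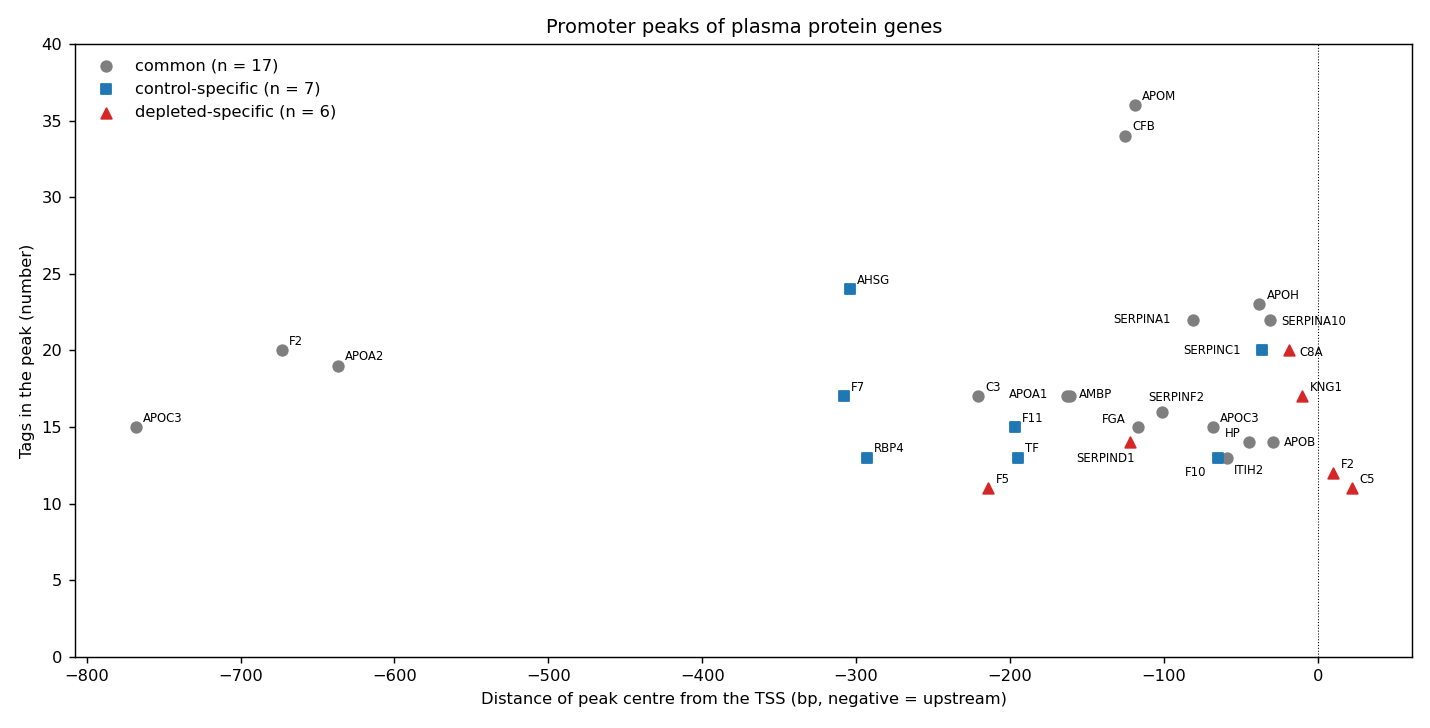
Tags in each of the 30 promoter peaks of plasma protein genes (y axis) against the distance of its centre from the TSS (x axis, bp, negative is upstream), marked by list, where common peaks are on the control scale. APOM (36 tags) and CFB (34 tags) had the highest tag numbers, and 27 of the 30 centres lay within 400 bp of the TSS.

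Of the 30 promoter peaks, 28 were centred upstream of the TSS and 27 lay within 400 bp of it. The median tag number was 17 for the 17 common, 15 for the 7 control-specific and 13 for the 6 depleted-specific promoter peaks, and with a tag worth more in the depleted-specific list these correspond to median scores of 6.91, 6.1 and 6.59. Their ranges overlapped (13 to 36, 13 to 24 and 11 to 20 tags). Over all promoter peaks the medians were close to these, at 17 tags (common), 15 (control-specific) and 14 (depleted-specific). Among the peaks of the 59 genes at any position, 15 common ones reached 20 tags, as did 4 control-specific and 7 depleted-specific ones. A peak of 20 tags scores 8.13 on the control scale but 10.1 in the depleted-specific list, so this limit was not equal between lists. Peaks with 20 tags were not counted over all listed peaks.

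Peaks were also counted by gene cluster. Of 6 peaks named for genes of the APOA1, APOC3, APOA4 and APOA5 cluster (48.3 kb on chromosome 11), 5 were common and 1 was depleted-specific. Of 14 peaks at the SERPINA cluster (344 kb on chromosome 14, from SERPINA10 to SERPINA3), 8 were common, 2 control-specific and 4 depleted-specific. At AHSG, FETUB and KNG1 (131 kb on chromosome 3) 0 of 11 peaks were common, with 5 control-specific and 6 depleted-specific ones. The upper limit of that share, 28.5%, lay above the 25.6% of common peaks in all lists. In that cluster the AHSG promoter peak was control-specific and the KNG1 promoter peak was depleted-specific. The counts per cluster were small and whether clusters differ was not tested.

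The peaks outside promoters lay close to the plasma protein genes. Their median distance from the TSS was 5.57 kb for common, 13.2 kb for control-specific and 8.96 kb for depleted-specific peaks, while over all peaks outside promoters it was 24.4, 29.4 and 29.2 kb. Within 10 kb of the TSS lay 63.6%, 41.4% and 51.8% of them, against 29%, 25% and 25.2% over all peaks. A peak of another list lay within 1000 bp of 4 of 36 control-specific peaks of the 59 genes (11.1%, 3.11 to 26.1), against 21.7% over all peaks. For depleted-specific peaks it was 6 of 62 (9.68%, 3.63 to 19.9), against 14.8%, and both intervals held the share over all peaks. The 6 peak-rich chromosomes held 70.4% of all peaks but 42.6% of those of the plasma protein genes. Neither the distances nor these shares were compared by chromosome.

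The chromosomes rich in peaks bore on these counts. On chromosomes 2, 6, 14, 16, 17 and 20 all 14 plasma protein genes were named for a peak, and on the others 31 of 45 were. The share of all protein-coding genes named for a peak was 52.8% over all chromosomes and was not counted on either set. All 13 specific promoter peaks lay on the other chromosomes. On the 6 rich ones 0 of 18 control-specific peaks (up to 18.5%) were at promoters, against 3.37% over all control-specific peaks there. Likewise 0 of 23 depleted-specific peaks (up to 14.8%) were, against 5.38%, so both upper limits lay above the share over all peaks. Of the 22 common peaks there, 8 were at promoters (36.4%, 17.2 to 59.3), against 18%. On the other chromosomes the promoter share of control-specific peaks was 38.9% (17.3 to 64.3), against 15.2% over all control-specific peaks there. That of depleted-specific peaks was 15.4% (5.86 to 30.5), against 22.2%. The promoter ratio there was 0.857, against 4.26 over all peaks, and the ratio outside promoters was 3 (1.48 to 6.58), against 2.68. Copy number of these chromosomes, and its part in the counts, was not tested.

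Motifs were searched on both strands as CAAAGTCCA for HNF4, TTNNGCAA for C/EBP, TGTTTNC for FOXA, TATAAA for the TATA box, GGGCGG for Sp1 and AAGTCA for the binding word of the NR2E receptors, where N is any base. The HNF1 word was GTTAAT followed, after 1 free base, by ATT. Matches could overlap, and they describe letters and not binding. Among the 30 promoter peaks, 11 held a FOXA word (36.7%, 19.9 to 56.1), against 15.7% of all promoter peaks. Only 8 held an Sp1 word (26.7%, 12.3 to 45.9), against 62.3%. HNF4 words stood in 2 (AHSG and F10, both control-specific) and an HNF1 word in 1 (FGA), against 0.501% and 0.446%. The median GC content of the promoter peaks was 52.8%, against 62.3%.

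By list, 8 of 17 common and 3 of 7 control-specific promoter peaks held a FOXA word (47.1% and 42.9%), against 15.5% and 20% over all promoter peaks of these lists. The 8 common ones were at AMBP, APOA1, APOA2, APOB, APOM, CFB, FGA and SERPINA1, and the 3 control-specific ones at F7, F11 and RBP4. Of the 6 depleted-specific promoter peaks, 0 held a match to any of the 7 motifs (up to 45.9%), where 14.6% of all depleted-specific promoter peaks held a FOXA word and 64.5% an Sp1 word. These counts cover the peaks alone. In the promoters searched regardless of peaks (below), KNG1 held FOXA, C/EBP and NR2E words. Those of F2, F5, SERPIND1, C5 and C8A held none of the 7 motifs there. With 6 peaks a difference between the lists was not tested.

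Outside promoters, the word AAGTCA stood in 38 of 118 peaks (32.2%, 23.9 to 41.4), against 20.8% over all peaks outside promoters. It was alike in the 3 lists, at 30.3% in the common, 34.5% in the control-specific and 32.1% in the depleted-specific list. It is visible in the common and the control-specific APOB peaks shown above, in the latter on the opposite strand as TGACTT. At promoter peaks the word stood in 2 of 30 (6.67%, 0.818 to 22.1), against 9.79%. FOXA words stood in 17 of 33 common peaks outside promoters (51.5%, 33.5 to 69.2), against 33.3%, but in 24.1% of the control-specific ones (against 27.7%) and 28.6% of the depleted-specific ones (against 29%). HNF4 words stood in 0 of the 118 peaks (up to 3.08%), against 1.48%, and HNF1 words in 2 (1.69%, 0.206 to 5.99), against 0.835%. C/EBP words stood in 22.9% (15.7 to 31.5), against 18.1%.

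**Figure D5:**
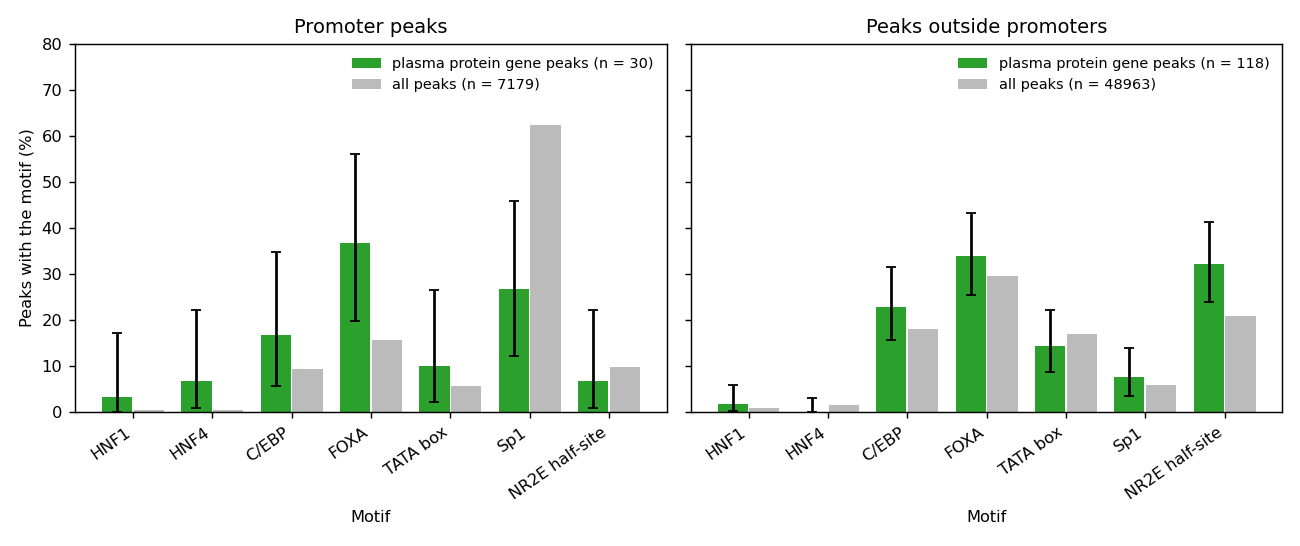
Percentage of peaks holding each motif (y axis; motifs on the x axis) among the peaks of plasma protein genes and among all peaks, at promoters (left) and outside them (right), where error bars are exact 95% intervals for counting error. At promoters FOXA stood at 36.7% beside 15.7% and Sp1 at 26.7% beside 62.3%, and outside promoters the NR2E word stood at 32.2% beside 20.8%.

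The same letters were counted in promoters regardless of peaks, from 250 bases before to 50 bases after the TSS in the RefSeq table, which held 46 of the 59 genes. Missing from it were TTR, GC, HP, ORM2, APOA1, APOB, APOC3, SERPINC1, SERPINF1, SERPINF2, SERPING1, C3 and ITIH2. Of the 16 genes with a common promoter peak it held 9, and of the 31 without a promoter peak 26, so genes without a peak weighed more. At least 1 of the 4 liver factor words stood in 22 of the 46 promoters (47.8%), against 21.6% of 15843 protein-coding promoters. HNF1 words stood in 3 (FGA, F13B and PLG; 6.52%, 1.37 to 17.9), against 0.259%, and HNF4 words in 2 (AHSG and F10; 4.35%, 0.531 to 14.8), against 0.316%. FOXA words stood in 30.4% against 14.6%, C/EBP words in 19.6% against 8.36%, TATA boxes in 15.2% against 9.63%, Sp1 words in 19.6% against 58.5% and NR2E words in 8.7% against 10%. Promoters without a peak held them too: of 26 such promoters, 7 held a FOXA word (26.9%, 11.6 to 47.8), and the median GC content was 52.8% there, 53% in the 9 promoters with a common peak and 49.3% in the 11 with a specific peak alone.

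No peak was named for 14 of the 59 genes. They were the carriers TTR, GC, ORM1, ORM2 and SERPINA7, which carry thyroid hormone, vitamin D and drugs, the apolipoproteins APOA5 and APOC1, the clotting factors F9, F12 and F13B, the complement protein C9 and the inhibitors SERPING1, ITIH3 and ITIH4. For 3 of them (TTR, APOC1 and F12) a peak lay within 10 kb of the gene but was named for a neighbour. A gene without a listed peak may still hold tags below the calling threshold, and such tags were not analysed here.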

How the data were processed

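Genomic DNA of 2 FAIRE-seq libraries from HepG2 cells, 1 control and 1 NR2E3-depleted, was analysed, grouped by the treatment in the labels. Per the submitters' processing notes the tools were bcl2fastq 2.17, Trimmomatic 0.39, Bowtie2 2.4.5 and SAMtools 1.14, with the build hg38. The authors called peaks and annotated them with HOMER and deposited 3 annotated lists with a peak score, a scaled tag number. How common and specific peaks were separated is not given in the sources used here. Within each list, 100% of scores below 10 were multiples of a fixed step, the value of 1 tag, which gave the tags per peak. Were the scale 10 M (mega) tags, the depths would be 24.6 M (control) and 19.7 M (depleted), a scale that is inferred.

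Rows were taken by gene name and the promoter class as annotated. The 59 genes, their functions, the comparison list, the motifs and the peak-rich chromosomes were chosen with earlier results of these data known. By rule, genes with a promoter peak and the 8 with the most peaks were described with values and the rest named in counts. Values of the remaining genes that are printed were chosen after they had been seen. Protein-coding genes came from a RefSeq table, gene spans from GENCODE 44, and sequences from hg38 and the RefSeq promoter table. Shares carry exact Clopper-Pearson, ratios exact binomial and tag numbers exact Poisson 95% intervals (scipy 1.17.1), for counting error only, and peaks that cluster are not independent. With 1 library per group no p-value was computed. Code was tested on simulated lists. Alternatives covered the promoter definition, a stricter score, the assignment of peaks to genes, neighbouring or merged peaks, peak-rich chromosomes and the promoter window. The result for 1 marker gene is not reported here.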

Additional observations from a re-analysis of the deposited data

How the results depend on the processing

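Of 74 recomputed values, 66 stayed near the reported ones (counts within 1.5 times, other values within their intervals) and 8 moved. A reversal was looked for only in the overall ratio of depleted-specific to control-specific peaks, which stayed above 1. In settings added after seeing the data, the promoter ratio went from 0.857 to 1.12 within 1000 bp of the TSS and 1.5 within 3000 bp. These values passed 1 but count as near, because the main interval was wide (0.238 to 2.98). With promoters defined as centres within 3000 bp of the TSS, depleted-specific promoter peaks were found at 16 genes and control-specific ones at 11, and the promoter share of peaks was 37.8%. Taking peaks within 10 kb of the gene, a rule that also counts promoter peaks named for a neighbour, the share was 28.2%. With a stricter score of 6.08 for all lists, 4 genes had a control-specific promoter peak and the depleted-specific to control-specific ratio was 2.68. That threshold needs 15 tags in the control and 12 in the depleted library, and it kept 52.8% of control-specific but 82.3% of depleted-specific peaks. In promoter windows starting 100 bases before the TSS, C/EBP words stood in 6.52% (against 3.56% of all promoters) and FOXA words in 15.2% (against 6.94%), by construction of a shorter window. Chosen after seeing the data, the promoter ratio within 500 bp of the TSS was 0.875, and the ratio over all peaks of the genes without APOB was 2.08 and with peaks within 50 kb of the TSS 1.84. The matching ratio over all listed peaks was not computed for 2.68, 2.08 or 1.84.

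No paired analysis was possible because the 2 groups held only 1 library apiece, and leaving out a replicate was likewise not done. Tag numbers of 10 to 36 per peak limit all comparisons of single peaks, and tags of the other library at a specific peak were not analysed here.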
